A study of Homo sapiens with 6 samples.

Results

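MHC class I molecules were read here through 9 genes, chosen by symbol from the 17687 genes of the deposited table. They are HLA-B and HLA-C (classical heavy chains), HLA-E and HLA-F (non-classical heavy chains), B2M (the light chain, beta-2-microglobulin), TAP1 and TAP2 (the peptide transporter), TAPBP (tapasin, the loading chaperone) and NLRC5 (the transactivator of class I promoters). All 9 were among the 14005 genes that passed the filter on low counts. The genes were picked with results of these libraries known, so their levels and fold changes are given as a description. Calls and counts of p-values below a threshold describe the fits and test no hypothesis set beforehand.

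RNA-seq was performed on KHM-5M, an established anaplastic thyroid cancer cell line. The 3 groups of 2 libraries were control cells given PBS (control), cells given sodium selenite (SS), and cells given sodium selenite together with N-acetylcysteine, an antioxidant (SS+NAC). The first comparison asks what selenite changed, and the others ask what remained when the antioxidant was present. No group received N-acetylcysteine alone, so its own effect and its effect on selenite cannot be told apart, and every library came from 1 cell line. The libraries held 17645545 to 23810056 expected counts each. The replicates are described as biological in the methods.

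Class I molecules carry peptides from inside the cell to its surface, where CD8+ T cells inspect them. Proteasomes cut proteins into peptides, TAP1 and TAP2 pump them into the endoplasmic reticulum, tapasin holds an empty heavy chain and B2M dimer next to the pump, and ERAP1 and ERAP2 trim the peptides to fit. HLA-E presents leader peptides of other heavy chains to NK cell receptors. Interferon gamma induces most of these genes together, through NLRC5 at the promoter box shared by class I genes and through IRF1 at interferon response elements. Tumours often lower this pathway to escape T cells.

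Of the 9 genes, 7 lie in the MHC on chromosome 6 (GENCODE v29 transcripts, GRCh38). HLA-F lies at chr6:29723279-29727296, HLA-E at chr6:30489467-30494205, HLA-C at chr6:31268749-31272086 and HLA-B at chr6:31353872-31357187. TAP2 lies at chr6:32821833-32838727, TAP1 at chr6:32845209-32853978 and TAPBP at chr6:33303573-33314212. B2M lies apart at chr15:44711487-44718877, and NLRC5 at chr16:56989498-57083524. Exons of HLA-F overlap HLA-F-AS1, AL645939.1 and RPL23AP1 and exons of TAP1 overlap PSMB8-AS1, and without stated strand use their reads cannot be told apart from those of an antisense gene. Over all its GENCODE transcripts HLA-B spans 87698 bases, chr6:31269491-31357188, and its exons overlap those of HLA-C, on the same strand, and of AL671883.2. The deposited table gives HLA-C a span of 28607430 bases and HLA-B one of 203156 bases, far beyond these transcripts, and those spans were not used.

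Promoter sequences show what these genes share upstream of transcription. RefSeq promoters on GRCh38.p14 matched 7 of the 9 genes; HLA-E and NLRC5 had no match. Motifs were searched on both strands in the 250 bases before each start: CCAAT, the NF-Y box; TGACG, the core bound by CREB and ATF factors; GAANNGAAA and the longer form in which 2 copies of GAAA stand with 2 bases between, both shapes of interferon response element; and the NF-kappaB consensus. Both interferon forms were settled on after the sequences had been seen. The stretches of HLA-B, HLA-C, B2M and TAP2 are shown because most of their 250 bases lie before the first exon in GENCODE v29. Those of HLA-F, TAP1 and TAPBP lie inside the GENCODE span of the gene and are not shown. Motif matches are in capitals. Each is written 5′ to 3′ and stops before the first exon in GENCODE v29:
HLA-B (chr6:31357189-31357429, minus strand): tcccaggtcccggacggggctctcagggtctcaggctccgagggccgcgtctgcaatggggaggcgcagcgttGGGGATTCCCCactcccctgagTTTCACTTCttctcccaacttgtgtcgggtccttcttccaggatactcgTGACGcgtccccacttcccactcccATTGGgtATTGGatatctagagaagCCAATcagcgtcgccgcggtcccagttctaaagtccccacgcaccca
HLA-C (chr6:31272131-31272342, minus strand): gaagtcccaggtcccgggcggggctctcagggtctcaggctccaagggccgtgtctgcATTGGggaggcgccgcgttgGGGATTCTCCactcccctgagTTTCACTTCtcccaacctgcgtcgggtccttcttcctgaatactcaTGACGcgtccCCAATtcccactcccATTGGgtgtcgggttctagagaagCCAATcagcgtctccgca
B2M (chr15:44711267-44711486, plus strand): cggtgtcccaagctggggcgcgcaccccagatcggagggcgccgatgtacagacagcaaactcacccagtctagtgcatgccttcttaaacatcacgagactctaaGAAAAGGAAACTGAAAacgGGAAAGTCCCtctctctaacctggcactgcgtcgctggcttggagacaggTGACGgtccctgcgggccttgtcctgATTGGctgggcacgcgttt
TAP2 (chr6:32838781-32838989, minus strand): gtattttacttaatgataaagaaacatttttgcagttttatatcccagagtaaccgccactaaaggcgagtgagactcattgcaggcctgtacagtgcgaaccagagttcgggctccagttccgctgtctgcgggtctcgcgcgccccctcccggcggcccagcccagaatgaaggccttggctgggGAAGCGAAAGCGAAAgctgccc

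HLA-B and HLA-C had the same kinds of motif in the same order: an NF-kappaB match, GAANNGAAA, TGACG, then CCAAT boxes, with 1 more CCAAT upstream of these in HLA-C. GAANNGAAA lay 155 to 147 bases before the HLA-B start and 151 to 143 bases before the HLA-C start, and neither promoter held the longer interferon form. The longer form occurred in HLA-F, B2M, TAP1, TAP2 and TAPBP, and TAP2 alone of the 7 held both. A further RefSeq promoter of TAP1 (chr6:32852762-32853011) held no match to any of these motifs. Of all 35116 promoters in the table, 6.56% held GAANNGAAA, 3.02% the longer form, 32.0% CCAAT, 21.2% TGACG and 9.96% the NF-kappaB consensus. A match is a description of letters and not a bound site, and no binding was measured here.

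Close similarity among heavy chains bears on how 50-base reads could be assigned. The HLA-B and HLA-C coding sequences were identical at 1005 of 1086 aligned bases (92.5%), and HLA-E and HLA-F, the least alike pair, at 82.6%. The HLA-B and HLA-C reference transcripts shared 30 windows of 50 bases, 2.0% of the HLA-B windows. One shared window lies in exon 3, where a read could come from either gene:
HLA-B (chr6:31356317-31356366, minus strand): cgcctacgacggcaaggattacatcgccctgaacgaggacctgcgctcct
HLA-C (chr6:31271223-31271272, minus strand): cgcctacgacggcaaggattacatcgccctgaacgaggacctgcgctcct
The window with the most differences lies in exon 5, where 9 bases differ (in capitals):
HLA-B (chr6:31355111-31355160, minus strand): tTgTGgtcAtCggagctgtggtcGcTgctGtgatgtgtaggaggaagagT
HLA-C (chr6:31269970-31270019, minus strand): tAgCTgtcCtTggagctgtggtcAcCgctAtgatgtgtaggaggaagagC
Window shares describe 1 reference transcript per gene, which can differ from the transcripts counted in the libraries. The TAP2 transcript has 2497 bases and that of B2M 1705, beside effective lengths of 4819 and 976 bases in the deposited values. Against the other genes of the table, matched by symbol, 2.47% of HLA-B windows, 6.66% of HLA-C windows, 5.13% of HLA-E windows and 1.51% of HLA-F windows were shared. No window of the B2M, TAPBP and NLRC5 reference transcripts was shared, although 1 HLA-E window also occurs in a TAPBP transcript. Against all GENCODE genes the share rose to 21.0% for HLA-B, 41.7% for HLA-F, 15.2% for TAP1 and 80.2% for TAP2, whose exons overlap another annotated gene, AL669918.1. HLA values are therefore uncertain to the extent that reads were split among near-identical genes, and the alleles of KHM-5M may differ from the reference.

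The order of levels was read per transcript length, in the FPKM values deposited by the authors. In control cells B2M stood highest at 540 ± 16.8 FPKM (SD, n = 2), followed by HLA-B at 121 ± 5.56 FPKM. HLA-C at 73.2 ± 0.75 FPKM and HLA-E at 72.5 ± 3.54 FPKM overlapped. TAPBP at 45.5 ± 1.58 FPKM, TAP2 at 31.8 ± 0.80 FPKM and TAP1 at 11.7 ± 0.042 FPKM followed, each apart from the next. NLRC5 at 2.93 ± 0.45 FPKM and HLA-F at 2.32 ± 0.085 FPKM were lowest. The first 7 places were the same in SS and in SS+NAC, and HLA-F and NLRC5 overlapped in both treated groups.

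Libraries were compared in CPM, counts scaled to library size with TMM factors, which compare 1 gene between libraries. HLA-B was at 197 and 188 CPM in control, 259 and 245 CPM in SS, and 257 and 285 CPM in SS+NAC. Both treated groups lay above control and overlapped each other in CPM. In TPM, another scaling deposited by the authors, SS at 275 and 237 overlapped control at 245 and 228. SS+NAC, at 318 and 376 TPM, lay above both. HLA-C was at 114 and 114 CPM in control, 156 and 156 CPM in SS, and 149 and 160.3 CPM in SS+NAC. It showed the same layout with the closest control replicates. HLA-E was at 197 and 187 CPM in control, 262 and 229.5 CPM in SS, and 237 and 271 CPM in SS+NAC. Again both treated groups were above control and overlapped each other in CPM. In TPM, SS at 166.5 and 132.6 enclosed control at 146 and 136, and lay below SS+NAC at 175 and 214. HLA-F, the least abundant heavy chain, was at 3.84 and 3.75 CPM in control, 5.10 and 4.84 CPM in SS, and 3.73 and 5.32 CPM in SS+NAC. Its SS+NAC libraries enclosed the other groups.

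B2M was at 527 and 512 CPM in control, 799 and 729 CPM in SS, and 531 and 706 CPM in SS+NAC. Replicate 1 of SS+NAC was close to control and replicate 2 was close to SS, so this group's mean describes neither library. TAPBP was at 167 and 161 CPM in control, 194 and 185 CPM in SS, and 200.4 and 205 CPM in SS+NAC. The 3 groups did not overlap in CPM, with SS+NAC highest. In TPM, SS at 91.56 and 79.25 overlapped control at 90.99 and 86.15, and SS+NAC was highest at 109 and 119. TAP1 was at 29.6 and 30.4 CPM in control, 31.0 and 30.8 CPM in SS, and 34.0 and 34.5 CPM in SS+NAC. SS lay just above control in CPM, and SS+NAC stood above both. In TPM, SS at 21.2 and 19.4 lay below control at 22.8 and 22.6.

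TAP2, the partner of TAP1 in the transporter, was at 142 and 148 CPM in control, 119.9 and 124 CPM in SS, and 155 and 142 CPM in SS+NAC. SS lay below both other groups, which overlapped. In TPM the gap was wider, with SS at 41.9 and 39.0. Control was at 63.1 and 60.5 TPM, and SS+NAC at 62.4 and 61.7 TPM. NLRC5 was at 17.4 and 13.6 CPM in control, 14.7 and 11.8 CPM in SS, and 17.4 and 16.7 CPM in SS+NAC. SS overlapped control and lay below SS+NAC. In bulk RNA, fewer cells that express a gene and less RNA per cell cannot be told apart.

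**Figure D1:**
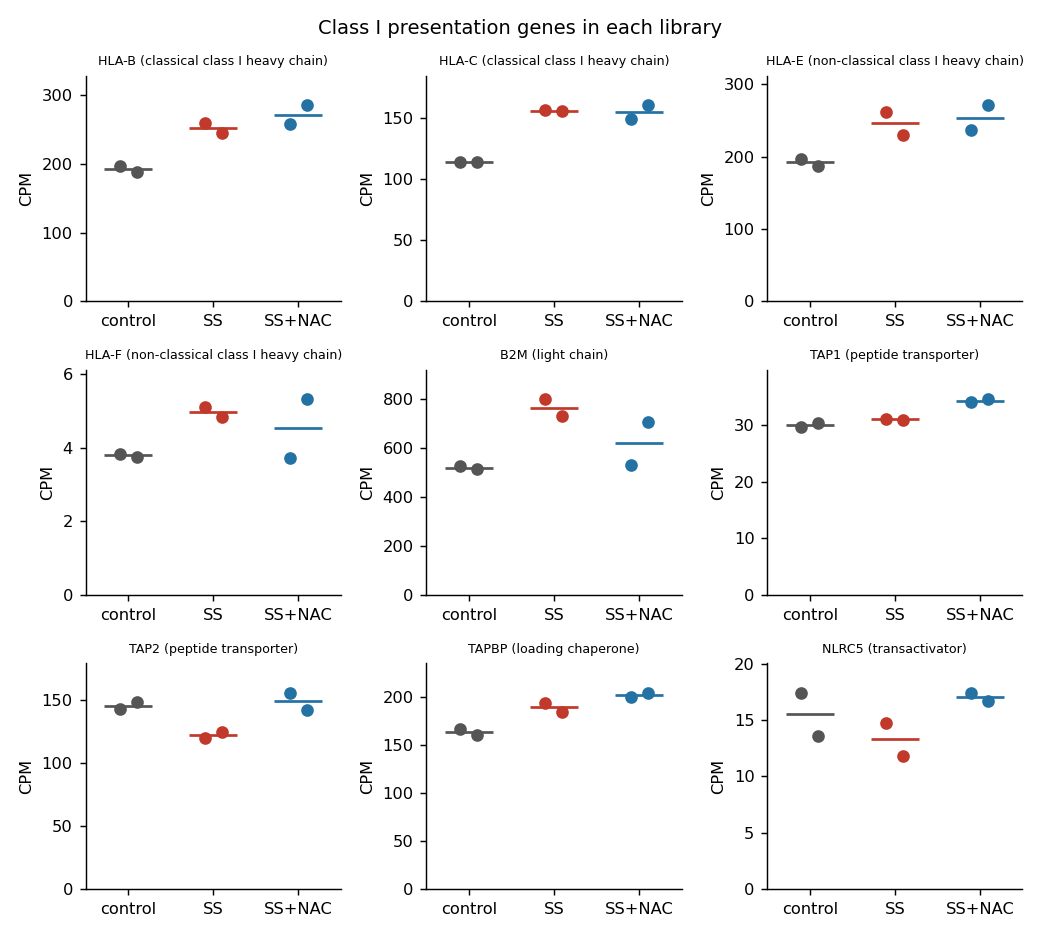
Level of each of the 9 genes in CPM (vertical axis, from 0) in the 6 libraries, by group; points are libraries and lines are group means of 2. HLA-B, HLA-C, HLA-E and TAPBP sit higher in both treated groups, the HLA-F libraries of SS+NAC lie on either side of control, TAP2 sits lower in SS alone, and the B2M replicates of SS+NAC lie at 531 and 706 CPM.

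In SS against control, B2M, HLA-C, HLA-B, HLA-E and TAPBP were called higher and TAP2 was called lower by edgeR at an adjusted p of at most 0.05. Across all 14005 tested genes, 18.6% were called higher and 21.4% lower in this comparison. The log2 fold change was 0.56 ± 0.12 (SE) for B2M, 0.45 ± 0.073 for HLA-C, 0.39 ± 0.080 for HLA-B, 0.36 ± 0.093 for HLA-E and 0.21 ± 0.072 for TAPBP. TAP2 was at -0.25 ± 0.076. HLA-F at 0.39 ± 0.20, TAP1 at 0.05 ± 0.077 and NLRC5 at -0.21 ± 0.14 were not called. With 1 library left out, NLRC5 ran from -0.38 to -0.032 and TAP1 from 0.025 to 0.093. The median of the 9 genes was 0.36, beside 0.00 over all tested genes. HLA-E, TAPBP and TAP2 lost their calls without control replicate 1, without control replicate 2 or without SS replicate 1, leaving 3 called genes each time, and TAPBP and TAP2 lost theirs without SS replicate 2, leaving 4. In these 4 fits 8.61% to 15.3% of tested genes were called higher and 13.0% to 16.6% lower. B2M, HLA-C and HLA-B kept their calls whichever library was left out.

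Fold changes in this comparison ran with transcript length across the whole transcriptome. When the tested genes were put into 8 equal bins by effective length, the median log2 fold change fell from 0.46 in the shortest bin to -0.46 in the longest. B2M, the shortest of the 9 genes at 976 bases, lay 0.10 above the median of its bin. HLA-B and HLA-C, at 1606 and 1580 bases, lay 0.12 and 0.17 above theirs. TAP2 at 4819 bases and NLRC5 at 5304 bases lay 0.05 and 0.09 above a bin whose median was -0.30. HLA-E at 2682 bases and TAPBP at 3630 bases lay farthest above, by 0.33 and 0.29.

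With an offset per library for length, 1 of the 9 genes was called in SS against control, TAPBP at 0.33 ± 0.064. In that fit 4.19% of tested genes were called higher and 5.03% lower. B2M was at 0.12 ± 0.14, HLA-B at 0.12 ± 0.082, HLA-C at 0.17 ± 0.072 and HLA-E at 0.32 ± 0.089, none called. TAP2 turned to 0.02 ± 0.076 and NLRC5 to 0.10 ± 0.14. Whether the trend with length arose in the cells or in the libraries was not tested.

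In SS+NAC against control the bins showed no such slope, with medians from -0.02 to 0.02. HLA-B rose by 0.49 ± 0.080 and HLA-C by 0.44 ± 0.073 on the log2 scale, and both were called, with 1.36% of tested genes called higher and 0.657% lower. HLA-E at 0.40 ± 0.093, TAPBP at 0.31 ± 0.072, B2M at 0.25 ± 0.12, HLA-F at 0.25 ± 0.20, TAP1 at 0.19 ± 0.076, NLRC5 at 0.15 ± 0.14 and TAP2 at 0.03 ± 0.075 were not. With the length offset HLA-B (0.48), HLA-C (0.42) and TAPBP (0.30) were called, beside 1.35% of tested genes called higher and 0.664% lower. Without control replicate 1 or without control replicate 2, edgeR called 0 of the 9 genes, with 4 at an unadjusted p below 0.05 each time, and 0.522% to 0.544% of tested genes were called higher. The log2 fold changes were then 0.53 and 0.46 for HLA-B and 0.43 and 0.44 for HLA-C. On all libraries DESeq2 called 4 of the 9, beside 1.30% of its tested genes called higher and 0.997% lower. Without replicate 1 of SS+NAC, 5 were called (HLA-B, HLA-C, HLA-E, B2M and TAPBP), beside 3.92% of tested genes called higher and 3.69% lower. With the replicate block added to the length offset TAPBP, at 0.30, lost its call. This comparison shares its control libraries with the one before.

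In SS against SS+NAC, TAP2 was lower by a log2 fold change of -0.29 ± 0.076 and was the 1 gene called, beside 19.6% of tested genes called higher and 23.1% lower. That call was lost without SS replicate 1 and without SS replicate 2, where the log2 fold changes were -0.26 and -0.31. NLRC5 was at -0.36 ± 0.14 and B2M at 0.30 ± 0.12, neither called. B2M, at 0.33, was called by DESeq2 and by edgeR with DESeq2 size factors, with upper-quartile factors or with at least 10 counts in every library. With 1 library left out, NLRC5 ran from -0.53 to -0.21 and was called without SS replicate 1 (-0.53) or control replicate 1 (-0.36), and B2M ran from 0.11 to 0.52 and was called without SS+NAC replicate 2 (0.52). HLA-C differed by 0.01, with a 95% interval from -0.15 to 0.17, and HLA-B by -0.10, with an interval from -0.28 to 0.07. The slope with length returned here, with bin medians from 0.46 down to -0.44. With the length offset TAP2 was at -0.02 and lost its call, while HLA-B at -0.36 ± 0.082 and HLA-C at -0.25 ± 0.071 were called lower in SS, beside 7.04% of tested genes called higher and 7.38% lower. With the replicate block added HLA-C, at -0.25, lost its call and HLA-B, at -0.36, did not.

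**Figure D2:**
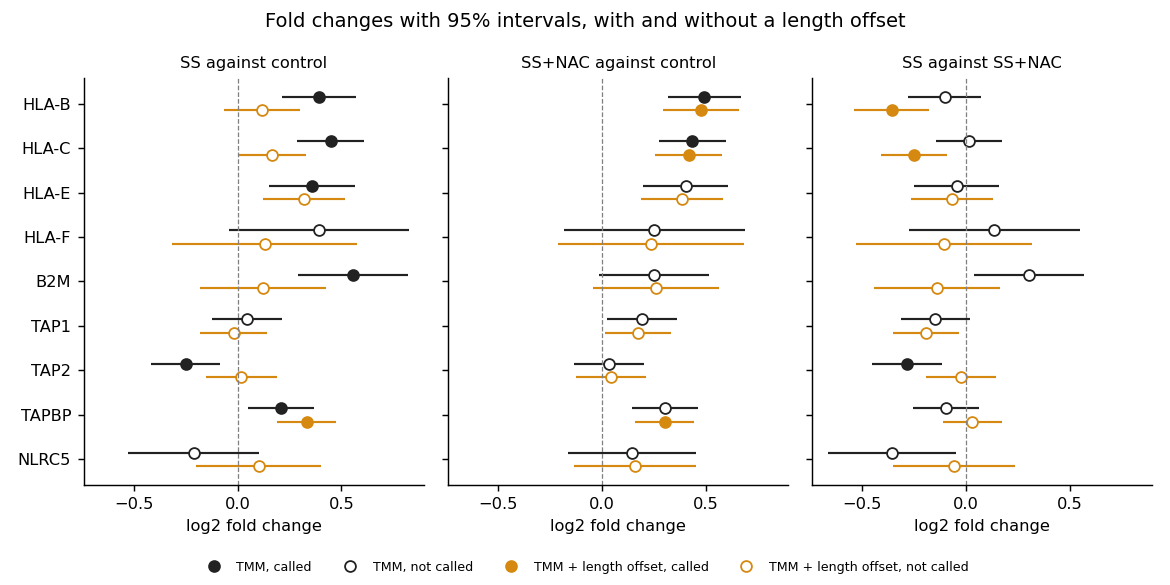
Log2 fold change (horizontal axis) of each gene in the 3 comparisons with its 95% interval, in the fit scaled by TMM and in the fit with a length offset added; filled points were called. In SS against control the called genes go from 6 to 1, and in SS+NAC against control HLA-B and HLA-C hardly move.

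**Figure D3:**
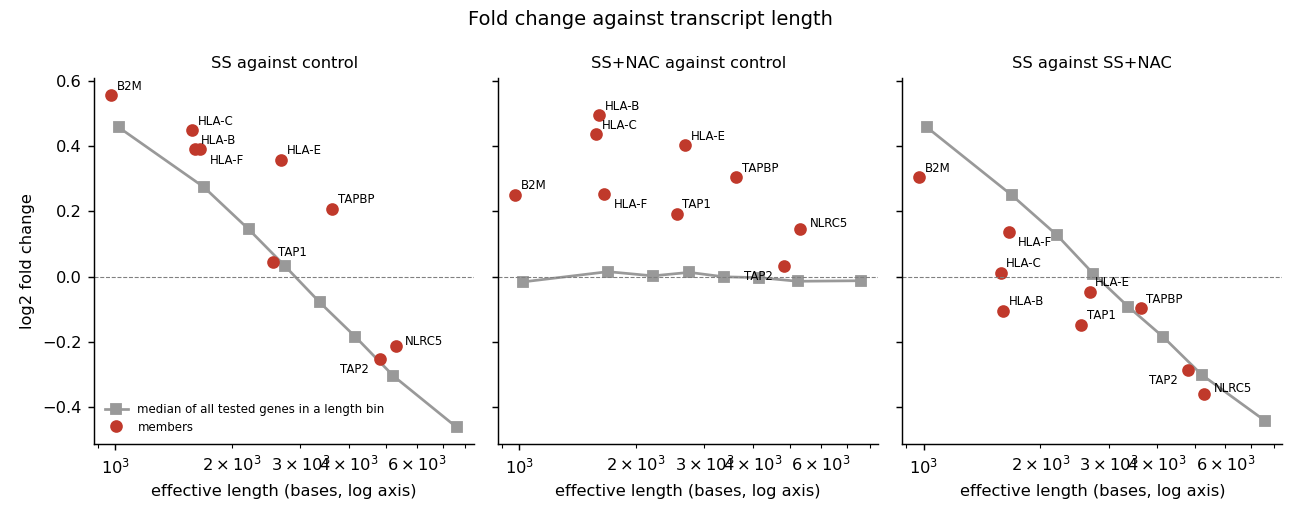
Log2 fold change (vertical axis) against effective length in bases (log axis), with squares for the median of all tested genes in each of 8 length bins and circles for the 9 genes. In both comparisons of SS the line falls from the shortest to the longest bin and TAP2 lies near it, whereas HLA-E and TAPBP lie above it in SS against control.

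Other genes of the pathway were counted in 9 lists, with the 9 genes above left out. The counts in SS against control stand beside the 18.6% called higher and 21.4% called lower over all tested genes, or 4.19% and 5.03% with the length offset, and nothing particular to a list was tested. PSMB8, PSMB9, PSMB10, PSME1 and PSME2, which build the immunoproteasome and its activator, were called higher in SS against control, 5 of 6 tested, and the constitutive catalytic subunits PSMB5, PSMB6 and PSMB7 were called higher too, 3 of 3. These 8 called genes fall in the shortest length bin, where 69.4% of all tested genes were called higher in SS against control. PSMB10 was at 27.2 and 25.5 CPM in control, 40.3 and 43.2 CPM in SS, and 30.9 and 31.1 CPM in SS+NAC. Its log2 fold change was 0.66 ± 0.081, beside 0.61 ± 0.092 for PSMB6. In SS+NAC against control edgeR called 0 of these 9 proteasome genes, 1 having an unadjusted p below 0.05, and limma on FPKM also called 0; with 1.36% of all tested genes called higher and 0.657% lower there, nothing about these genes is read from that count. In SS against SS+NAC 8 of the 9 were called higher, beside 19.6% of all tested genes called higher and 23.1% lower, and these calls were lost with the length offset. With the length offset edgeR called 0 of the 9 in SS against control, 2 having an unadjusted p below 0.05, and PSMB10 was at 0.23; DESeq2 and limma were not run with the offset.

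Of the 10 tested genes for loading, trimming and folding in the endoplasmic reticulum, 2 were called higher and 5 lower in SS against control. LNPEP, an aminopeptidase of the cross-presentation route, was at -0.72 ± 0.088, ERAP2 at -0.50 ± 0.088, UGGT1, which re-checks glycoprotein folding, at -0.41 ± 0.077 and ERAP1 at -0.38 ± 0.11. The 7 calls in this comparison were lost with the length offset: LNPEP was at -0.11, ERAP2 at -0.19 and ERAP1 at -0.11, and UGGT1 turned to 0.13. ERAP1 was also lower than in SS+NAC, by -0.61 ± 0.10, and of the 10 genes it alone kept that call with the length offset, at -0.33.

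Among other class I and class I-like molecules, 3 of 12 tested were called higher in SS against control. MICA (0.29 ± 0.082) and MICB (0.22 ± 0.075), ligands of the NK receptor NKG2D, and FCGRT (0.38 ± 0.13), the neonatal Fc receptor, were these 3. These 3 calls were lost with the length offset: MICA turned to -0.0096, MICB was at 0.13 and FCGRT at 0.12. ULBP1, another NKG2D ligand, was at -0.03 ± 0.18 in SS against control, was called higher in SS+NAC against control (0.83 ± 0.16) and was called lower in SS than in SS+NAC (-0.86 ± 0.16).

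Of the regulators of class I promoters, 4 of 18 tested were called higher and 3 lower in SS against control, shares near those over all tested genes, and 1 and 1 with the length offset. IRF1 was at 0.47 ± 0.080 and was called with the length offset too, at 0.37. IRF9, a factor of the type I interferon response, was at 0.46 ± 0.12. SUZ12, a subunit of the repressive PRC2 complex, was at -0.62 ± 0.088 and kept its call with the offset at -0.42, and CREB1 was at -0.53 ± 0.11. IRF9 at 0.20 and CREB1 at -0.12 lost their calls with the offset. Of the interferon receptors and kinases, 1 of 10 was called higher and 3 lower, and 0 and 2 with the offset. Of these 2, IFNAR2 at -0.38 had not been called without the offset. JAK2 was at 8.23 and 7.37 CPM in control, 4.40 and 3.33 CPM in SS, and 7.99 and 7.19 CPM in SS+NAC. Its log2 fold change was -1.004 ± 0.169, and -0.70 with the offset, still called. SOCS3, an inhibitor of cytokine signalling, was at 0.58 ± 0.20, IFNAR1 at -0.36 ± 0.092 and JAK1 at -0.26 ± 0.078. With the offset these 3 lost their calls, SOCS3 at 0.56, IFNAR1 at -0.12 and JAK1 turned to 0.035.

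Interferon gamma induced genes were called higher for 8 of 19 tested and lower for 2, CD274 and GBP3, in SS against control, and for 4 and 2 with the length offset. Of the 4, GBP4 at 0.77 and APOL6 at 0.79 had not been called without the offset. ICAM1, an adhesion molecule for T cells, was at 30.9 and 26.7 CPM in control, 52.8 and 39.7 CPM in SS, and 43.4 and 59.2 CPM in SS+NAC, a log2 fold change of 0.69 ± 0.16 in SS and 0.84 ± 0.16 in SS+NAC. It kept both calls with the offset. UBE2L6 (0.62 ± 0.094), PSMB9 (0.64 ± 0.082) and IFI30 (0.57 ± 0.12) were called in SS against control, and lost their calls with the offset at 0.25, 0.21 and 0.14. CD74, the class II invariant chain, was the 1 of 6 tested class II genes called, at 0.51 ± 0.092 in SS and 0.52 ± 0.091 in SS+NAC against control. With the offset it was at 0.21 in SS, not called, and at 0.50 in SS+NAC, called.

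Neighbours of the HLA and TAP genes in the MHC on chromosome 6 were called higher for 10 of 23 tested and lower for 1 in SS against control. ZNRD1 was at 0.69 ± 0.098, PSMB9 at 0.64 ± 0.082, CSNK2B at 0.56 ± 0.089 and NRM at 0.50 ± 0.081. These 4 lost their calls with the length offset, at 0.21, 0.21, 0.16 and 0.17, and 1 of the 23 was called, GNL1 at 0.58, which had not been called without it. Some called genes fall outside the naming rule and were chosen after their values were seen, to say which genes stand behind the small numbers of calls in their lists. In SS against control these included TAPBPL (0.31), HM13 (0.31), RFXANK (0.44) and NFYC (0.32), called higher, and CANX (-0.29), NFYA (-0.32) and MDC1 (-0.26), called lower. These 7 lost their calls with the length offset, and NFYA turned to 0.070 and MDC1 to 0.16. PSME1 (0.49), CD274 (-0.56) and GBP3 (-0.39), named above, also fall outside the rule. With the offset PSME1 at 0.058 lost its call, and CD274 at -0.54 and GBP3 at -0.37 kept theirs. In SS+NAC against control 4 of the 102 distinct list genes were called, beside 1.36% of all tested genes called higher and 0.657% lower, and these 4 were higher: ULBP1, ICAM1, CD74 and IER3, a stress-induced gene, at 0.86. The median of the neighbours was 0.16 in SS against control, beside 0.36 for the 9 class I genes, and with the length offset the order turned, at 0.15 and 0.12.

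**Figure D4:**
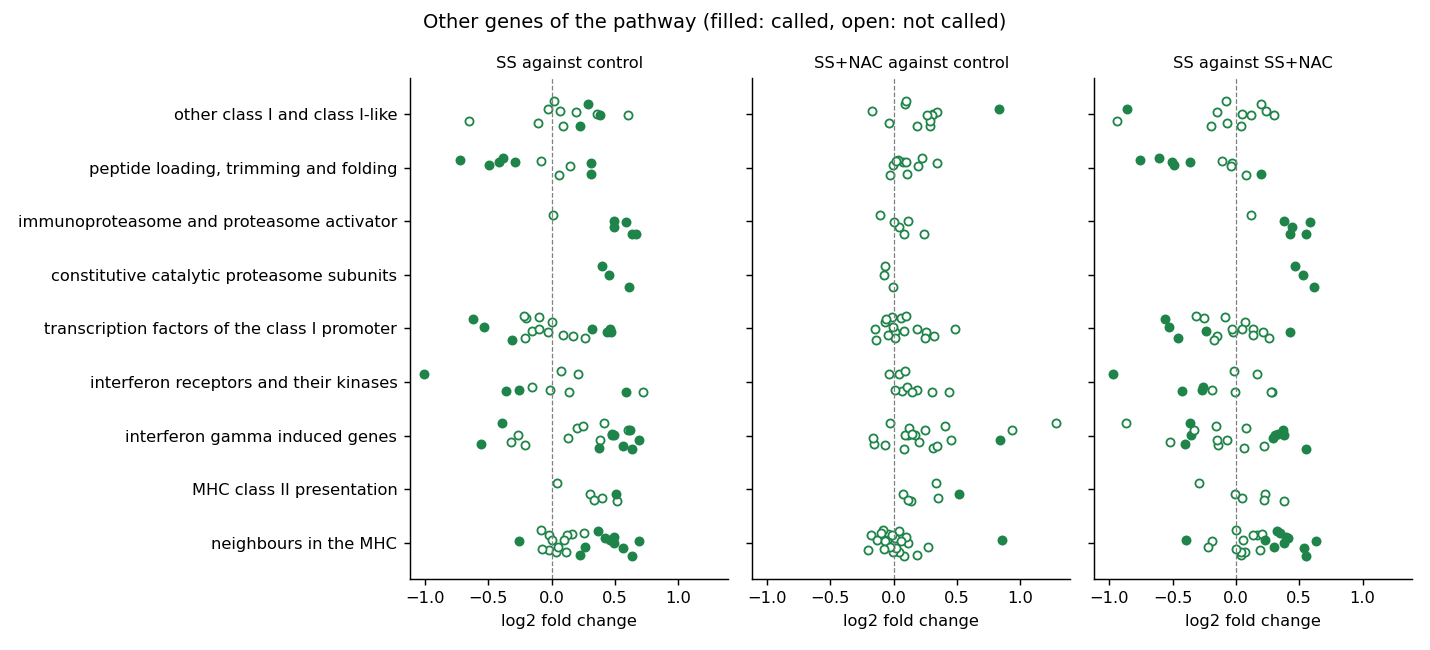
Log2 fold change (horizontal axis) of every tested gene of the 9 lists in the 3 comparisons; each point is a gene, filled where called, and vertical scatter within a list has no meaning. Of the 9 proteasome genes, 8 are filled to the right of 0 in both comparisons of SS, PSME3 is not called at 0.01 in SS against control, and none is filled in SS+NAC against control.

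The mean profile of the 9 genes over the 6 libraries, as centred log2 CPM, was -0.13 and -0.19 in control, 0.10 and 0.00 in SS, and 0.04 and 0.18 in SS+NAC. By root mean square distance, the 5 tested genes of at least 10 CPM nearest to it were PLD3 (0.023), GSTO2 (0.024), CYP20A1 (0.025), CLDN11 (0.031) and MFGE8 (0.032). By Pearson correlation over the same 6 libraries, ICAM1 was among the first 5, and PLD3 was the 1 gene that both measures named.

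Markers fixed for other cell types were read in the same libraries. PAX8, a thyroid factor, was at 253 to 278 CPM, TG at 0.95 to 1.39 CPM, and KRT8 at 831 to 1623 CPM and KRT18 at 502 to 1024 CPM were abundant, while EPCAM, KRT19 and CDH1 were at 5.22 CPM or lower. The summed epithelial list moved with treatment, from 1766 to 1847 CPM in control, 2249 to 2729 CPM in SS and 1377 to 1748 CPM in SS+NAC, nearly all of it KRT8 and KRT18. EPCAM was at 5.22 and 4.43 CPM in control, 3.88 and 4.38 CPM in SS and 4.80 and 4.11 CPM in SS+NAC. The summed fibroblast list, nearly all COL1A1, ran from 631 to 644 CPM in control, 588 to 590.5 CPM in SS and 694 to 795 CPM in SS+NAC. PTPRC, the pan-leukocyte marker, was at 0.37 to 0.58 CPM, and CD3E and ITGAM were at 0.13 CPM or lower. The summed leukocyte list ran from 394 to 396 CPM in control, 425 to 466 CPM in SS and 432 to 474 CPM in SS+NAC, nearly all of it LAPTM5 and CD68. The part of these lists in the class I values was not tested.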

How the data were processed

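Poly(A) RNA from 6 KHM-5M libraries was read as single-end 50-base reads. Per the labels and the submitters' processing notes, the authors filtered reads with SOAPnuke, used HISAT2 2.0.4 and Bowtie2 2.2.5, and counted with RSEM 1.2.12; the annotation is not given in the sources used here. The authors deposited expected counts, FPKM and TPM per gene and library. Strand use in counting is not stated, so antisense partners cannot be told apart. The 9 columns of group means and 9 columns of the authors' comparisons (fold changes and p-values) were not used.

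Expected counts were rounded and fitted with edgeR 4.0.16 in R 4.3.3 (filterByExpr, TMM, quasi-likelihood test, 6 libraries together), with Benjamini-Hochberg adjustment over 14005 genes; called means an adjusted p of at most 0.05. Alternatives used DESeq2 1.42.0, limma 3.58.1 on log2(FPKM + 1), other filters and scalings, a lowess length offset, a replicate block and leaving out each library. The fit was tested on simulated data. Intervals are 95%.

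Members and lists were chosen with earlier results of these data known. Named genes were all 9 members and, per list, up to 4 genes of at least 1 CPM called in a comparison of SS, by largest absolute log2 fold change in SS against control. Effective lengths are those implied by the deposited counts and FPKM, as 1 value per gene pooled over the 6 libraries. Promoters came from RefSeq and transcripts from GENCODE v29 on GRCh38. Coding sequence identity stood in for the protein identity that was planned. Replicate numbers were checked and did not pair the samples. A few genes of the lists are not reported here and were left out of the counts.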

Additional observations from a re-analysis of the deposited data

How the results depend on the processing

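The fits were repeated under 11 other settings and with each of the 6 libraries left out. The order of levels was the same in TPM as in FPKM for all 9 genes in each group, which within a library is fixed by how TPM is scaled. Between groups TPM differed from CPM. Mean TAPBP was 85.4 TPM in SS and 88.6 in control, and mean TAP1 was 20.3 and 22.7. In TPM, HLA-F in SS (5.33 and 4.47) overlapped control (4.65 and 4.38). NLRC5 in SS (4.98 and 3.58) lay below control (6.32 and 5.07). With a Bonferroni adjustment edgeR called 0 of the 9 genes in each comparison (6, 5 and 3 at an unadjusted p below 0.05 in SS against control, SS+NAC against control and SS against SS+NAC), and 0 of the 102 list genes in each (54, 25 and 49 at an unadjusted p below 0.05). In the same order, that adjustment called 0.0928%, 0.228% and 0.171% of all tested genes higher and 1.48%, 0.0571% and 1.19% lower. Nothing about the 9 genes or the lists is read from these counts of 0.

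In SS against control, the count of 6 called genes became 1 with the length offset and 1 with the replicate block and length offset. The 46 called list genes became 11 and 7. Over all tested genes 4.19% were called higher and 5.03% lower with the length offset, and 2.76% and 3.31% with the block added. The replicate block alone left 4 (TAP2 and TAPBP lost; 15.7% of tested genes called higher and 19.0% lower), and limma on FPKM left 4 (HLA-E and TAPBP lost; 13.5% and 24.2%). With limma on FPKM TAP2 was at -0.42 and was called. TAP1 turned to -0.019, TAP2 to 0.017 and NLRC5 to 0.10 with the length offset, and to -0.019, 0.018 and 0.096 with the block added. Leaving out 1 library gave 3 to 6 called genes and 30 to 53 list genes, the lowest without control replicate 1. In SS+NAC against control, 4 genes were called with at least 10 counts in every library (1.64% of tested genes called higher and 0.745% lower) and 4 by DESeq2 (1.30% and 0.997%), in place of 2, and limma on FPKM called 0 of the list genes in place of 4 (28 at an unadjusted p below 0.05) and put TAP2 at -0.0088. Leaving out either control replicate lowered the number of called genes and list genes, and leaving out SS+NAC replicate 1 raised it. With 1 library left out, log2 fold changes ran from -0.025 to 0.49 for HLA-F, -0.034 to 0.097 for TAP2, 0.030 to 0.44 for B2M and -0.027 to 0.33 for NLRC5.

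In SS against SS+NAC, B2M and TAP2 were called in place of TAP2 alone under the following settings, with the tested genes called higher and lower in brackets. These were at least 10 counts in every library (23.0% and 23.5%), DESeq2 size factors (21.0% and 21.3%), upper-quartile factors (21.6% and 21.1%) and DESeq2 (20.6% and 19.4%). With the length offset HLA-B and HLA-C were called (7.04% and 7.38%). With limma on FPKM 3 genes were called (12.4% and 28.6%). With the replicate block 2 genes were called, TAP2 and NLRC5 (16.4% and 20.3%). The 40 list genes became 11 with the length offset and 7 with the replicate block and length offset. Over all tested genes 7.04% were called higher and 7.38% lower with the offset, and 4.27% and 5.48% with the block added. With the length offset HLA-C turned to -0.25, HLA-F to -0.11, B2M to -0.14 and TAPBP to 0.030, and with the replicate block added to -0.25, -0.098, -0.13 and 0.030. HLA-C was at -0.13 with limma on FPKM. Leaving out 1 library gave 0 to 2 called genes and 23 to 47 list genes (23 without SS replicate 2). Log2 fold changes then ran from -0.041 to 0.066 for HLA-C, -0.14 to 0.053 for HLA-E and -0.097 to 0.41 for HLA-F. By Pearson correlation 1 of the 5 nearest genes was shared. The cause of these shifts was not tested. The correlations of replicate differences were 0.113, -0.105 and -0.175, so replicate numbers did not pair the samples. With 2 libraries per group, a missed call does not show that values did not differ.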
